A study of Mus musculus with 2 samples.

Results

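The genes described here are 10 members of the circadian clock and of the early response to glucocorticoid hormones, Per1, Per2, Dbp, Nfil3, Nr1d2, Arntl, Tsc22d3, Fkbp5, Zbtb16 and Ddit4, taken by symbol from the 32285 genes in the files and not by their values. They were followed in single cells of mouse blood, with 1 library from animals aged 2 months (young) and 1 from animals aged 24 months (old), all labelled male. Both libraries came from live blood cells left after red cell lysis and sorted for CD45, CD11b and Ly6G, the last a surface marker of mouse neutrophils, and were captured with the BD Rhapsody microwell system, which tags each captured molecule with a cell barcode and a unique molecular identifier (UMI), per the labels. The files name Cell Ranger and hold barcodes of 16 bases, and how these relate to Rhapsody barcodes is not given in the sources used here. The strain, the number of animals behind each library and the hour of blood collection are not given in the sources used here. The stated aim of the series is to describe senescent neutrophils in aging. The comparison made here is whether a difference between the libraries in these genes appears in neutrophils, monocytes, B cells and T cells alike.

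In the circadian clock, Arntl (BMAL1) pairs with CLOCK to switch on genes with E-box sequences, among them Per1 and Per2, whose proteins then repress that pair. Nr1d2 (REV-ERB beta) represses Arntl, Dbp activates and Nfil3 represses genes with D-box sequences, and blood neutrophils are known to vary in number and phenotype over the day. Glucocorticoids, adrenal hormones released with a daily rhythm and in stress, act through the receptor Nr3c1 to induce Tsc22d3 (GILZ, an inhibitor of inflammatory signalling), Fkbp5 (a co-chaperone that lowers the receptor's affinity for hormone), Zbtb16 (the transcription factor PLZF), Ddit4 (REDD1, an inhibitor of mTORC1 that hypoxia and energy stress also induce) and Per1.

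Sequencing gave 69599479 UMIs over 13599 barcodes for the young library (median 4246 per barcode) and 128826996 UMIs over 14334 barcodes for the old (median 7265.5). After filtering, 10310 young and 9329 old cells were neutrophil-like by their marker genes, 471 and 510 non-classical monocyte-like, 422 and 243 B cell-like, and 190 and 170 T cell-like. All 10 markers of its own list had UMIs in each of these classes in both libraries, but so did all 10 neutrophil markers. Summed non-classical monocyte markers stood at 5991 and 4983 CPM (young and old) in their class, against 918 and 426 CPM in neutrophil-like cells. B cell markers stood at 15729 and 11994 CPM, against 154 and 58.7 CPM. T cell markers stood at 5822 and 5113 CPM, against 24.8 and 14.2 CPM. Neutrophil markers in T cell-like cells summed to 10419 and 52170 CPM. A Ly6G sort should remove the last 3 classes, and their cells carried neutrophil RNA: S100a8 UMIs per cell reached 30.6% of the young and 36% of the old neutrophil level in non-classical monocyte-like cells, 20.2% and 17.1% in B cell-like cells, and 18.4% and 18.5% in T cell-like cells. The share was 2.46% and 1.62% in platelet-like cells and 19.8% and 1.95% in NK cell-like cells, of which 25 were old. It was 26.4% and 27.5% in classical monocyte-like and 43.4% and 28.1% in erythroid cell-like cells. The share thus differed between classes of the same library, and how much of this S100a8 was free RNA was not tested. Both libraries shared 53 cell barcodes. Levels are CPM, the UMIs of a gene scaled to a common total over all UMIs of the class and library, with exact Poisson 95% intervals in parentheses, which cover counting error only. With 1 library per age there is no replicate and no test, and every difference describes these 2 libraries.

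Promoter windows are shown first for the 3 members in which the letters of an element of these pathways were found and which were measured in neutrophil-like cells. RefSeq windows of 300 bases (GRCm38.p6, from 250 bases before a start to 50 from it onward) were found for 8 of the 10 members, 12 windows in all; Per2 and Zbtb16 had none. The sequences run 5′ to 3′ on the gene's strand, and capitals mark the motif.
Fkbp5, chr17:28486100-28486399, minus strand, E-box: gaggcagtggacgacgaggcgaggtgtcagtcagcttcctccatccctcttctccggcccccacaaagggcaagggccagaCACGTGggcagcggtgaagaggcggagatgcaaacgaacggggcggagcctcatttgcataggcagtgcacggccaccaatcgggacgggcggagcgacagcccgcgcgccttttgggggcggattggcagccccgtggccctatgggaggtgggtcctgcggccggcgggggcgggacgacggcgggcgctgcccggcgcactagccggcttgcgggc
Per1, chr11:69098699-69098998, plus strand, E-box: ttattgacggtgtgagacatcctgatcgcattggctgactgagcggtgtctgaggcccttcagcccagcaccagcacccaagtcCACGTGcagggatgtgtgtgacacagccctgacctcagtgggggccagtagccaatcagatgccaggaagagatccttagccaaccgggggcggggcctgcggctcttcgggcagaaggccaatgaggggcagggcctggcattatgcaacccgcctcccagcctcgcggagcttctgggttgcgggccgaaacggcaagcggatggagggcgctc
Tsc22d3, chrX:140600473-140600772, minus strand, glucocorticoid hexamer: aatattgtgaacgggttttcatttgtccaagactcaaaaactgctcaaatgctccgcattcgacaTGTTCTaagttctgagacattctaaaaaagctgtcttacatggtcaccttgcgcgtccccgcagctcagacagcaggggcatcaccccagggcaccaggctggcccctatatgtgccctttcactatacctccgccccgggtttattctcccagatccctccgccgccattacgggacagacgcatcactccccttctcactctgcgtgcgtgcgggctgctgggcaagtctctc
The E-box CACGTG begins 169 bases before the RefSeq start used for Fkbp5 and 166 bases before 1 of 2 Per1 starts, and 7.15% of all 32851 windows hold it. Both of these windows lie inside the GENCODE spans of their genes, 28399094 to 28517527 for Fkbp5 and 69095217 to 69109960 for Per1. They are not at the outermost starts of these genes. A single hexamer of the glucocorticoid element, AGAACA on either strand, begins 185 bases before 1 of 3 Tsc22d3 starts, and 19% of all windows hold it. A ROR element, the kind that Nr1d2 binds, lies in 1 of 2 Arntl windows and in 0.435% of all windows. No member window held a D-box (TTATGTAA or TTACGTAA), a cyclic AMP element (TGACGTCA) or the full glucocorticoid element of 2 hexamers, each read on both strands. These matches describe letters in short windows and were not tied to binding.

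No member was higher, and none was lower, in all 4 classes. A member counted as measured at 20 UMIs or more over both libraries and 5 CPM or more in their mean, and as higher or lower when the old to young ratio lay at least 1.5-fold from the class's median gene. This median stood at -0.67 log2 in neutrophil-like cells, -0.17 in non-classical monocyte-like, -0.09 in B cell-like and -0.13 in T cell-like cells. In neutrophil-like cells the median of all UMIs per cell went from 4083 in the young to 7322 in the old library. S100a8 alone went from 236 to 1317 UMIs per cell. A gene with a constant number of UMIs per cell has a lower CPM there, and the part of S100a8 in the shift of the median gene was not tested. In neutrophil-like cells 7 members were measured, of which 2 were higher and 2 lower, where 24.5% of all 7219 measured genes were higher and 12.2% lower. In non-classical monocyte-like cells 9 were measured, 1 higher and 0 lower, against 6.69% and 4.83% of 9315 genes. In B cell-like cells 9 were measured, 1 higher and 0 lower, against 12.4% and 8.67% of 9959 genes. In T cell-like cells 9 were measured, 0 higher and 2 lower, against 12% and 9.06% of 9996 genes. Of the 6 members measured in all 4 classes, 2, Per1 and Tsc22d3, lay within 1.5-fold in each. On the plain CPM ratio the neutrophil-like split was 1 higher and 4 lower, with Per1 and Tsc22d3 joining the lower side and Nfil3 no longer past 1.5-fold. On that ratio 7.94% of all measured genes were higher and 49.7% lower. The non-classical monocyte-like split on that ratio was 1 higher and 2 lower, Fkbp5 and Ddit4 being lower, against 4.53% and 9.54% of all genes. The B cell-like split was 1 and 1, against 10.2% and 11.7%.

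**Figure D1:**
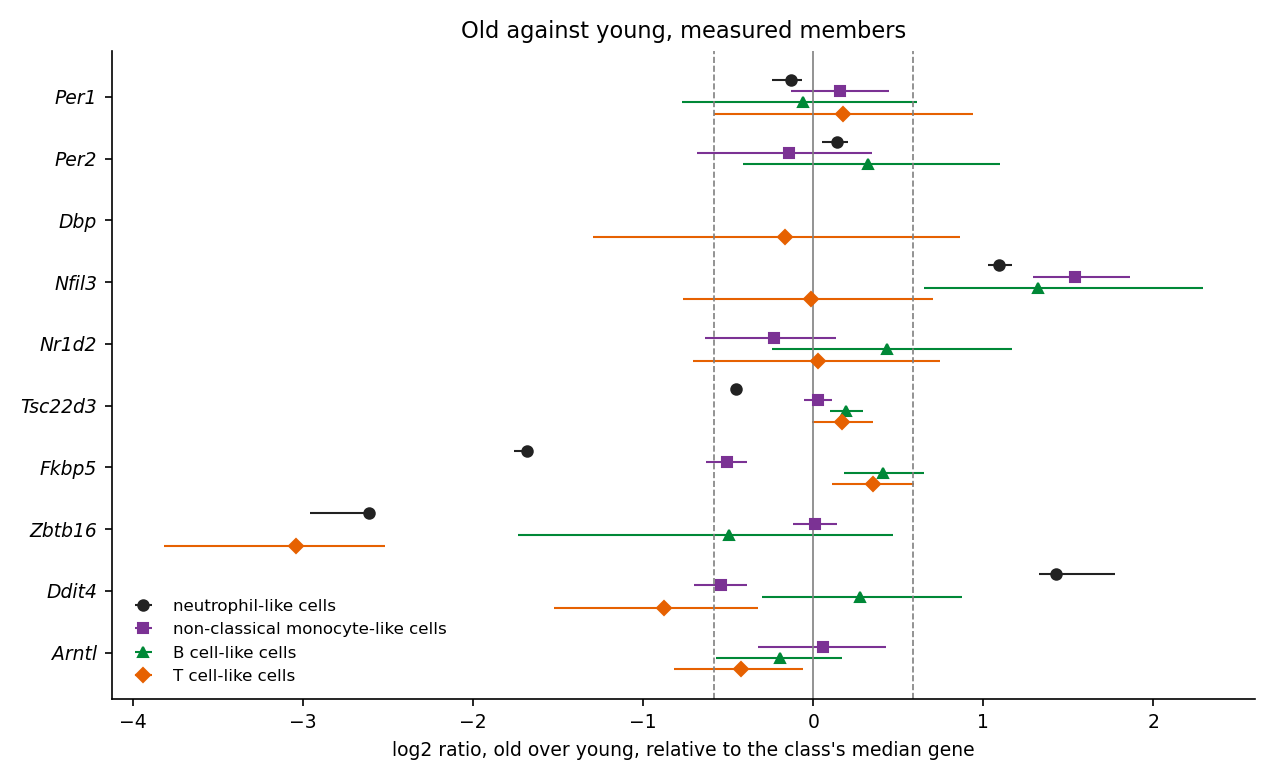
Old to young log2 ratio of each measured member (rows) relative to the median gene of its class, with 1 CPM added; marks are classes, bars the 95% counting interval of the ratio without the added CPM, and dashed lines 1.5-fold. Zbtb16 lies far to the left in neutrophil-like and T cell-like cells and at 0.01 in non-classical monocyte-like cells, and Fkbp5 lies left of the dashed line in neutrophil-like cells.

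Among the glucocorticoid response genes, Fkbp5 and Zbtb16 were lower in old neutrophil-like cells. Fkbp5 stood at 271 CPM (266 to 276) in the young and 52 CPM (50.5 to 53.6) in the old library, a 5.21-fold difference, or -1.69 log2 relative to the median gene. The intervals lie far apart, and UMIs numbered 12581 and 4201. Fkbp5 lies on chromosome 17 (28399094 to 28517527, minus strand, GRCm38), and the overlapping gene AC154912.5 on the same strand held 28 and 6 UMIs. In non-classical monocyte-like cells Fkbp5 stood at 274 CPM (260 to 288) and 171 CPM (160 to 182), -0.51 relative to the median gene and within 1.5-fold. The lymphocyte classes held 92.3 (82 to 104) against 115 CPM (103 to 129) in B cell-like and 146 (129 to 163) against 170 CPM (151 to 191) in T cell-like cells. Both lay within 1.5-fold, at 0.41 and 0.35, and the intervals of the levels overlap in each. The interval of the plain log2 ratio lay above 0 in B cell-like cells (0.08 to 0.56) and spanned 0 in T cell-like cells (-0.01 to 0.47). The free neutrophil RNA estimate, which is the share of the neutrophil S100a8 level found in a class times the member's UMIs per neutrophil-like cell, was 0.247 of 0.687 UMIs per B cell-like cell in the young and 0.077 of 1.26 in the old library. The estimate takes all S100a8 of a class as free RNA, which was not tested. With it subtracted, Fkbp5 in B cell-like cells stood at 0.92 relative to the median gene and counted as higher.

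Zbtb16, a transcription factor that innate-like T cells also need for their development, went in neutrophil-like cells from 66.1 CPM (63.8 to 68.5) to 5.88 CPM (5.37 to 6.44), -2.61 relative to the median gene. It lies on chromosome 9 (48654297 to 48836222, minus strand). Non-classical monocyte-like cells had the highest level of any class in both libraries, 196 CPM (184 to 209) and 176 CPM (165 to 187), and a relative ratio of 0.01. T cell-like cells went from 129 CPM (113 to 146) to 13.4 CPM (8.5 to 20.1), -3.04 relative to the median gene. That T cell-like value rests on few cells: 210 of the 252 young UMIs lay in the 10 cells with most of them, and the old cells held 23 UMIs in all. B cell-like cells had 23 and 12 UMIs, and the young level of 0.0545 UMIs per cell lies below the 0.0602 of the free neutrophil RNA estimate.

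Tsc22d3, on the X chromosome (140539528 to 140600659, minus strand), lay within 1.5-fold of the median gene in all 4 classes. Its level in neutrophil-like cells was 855 CPM (847 to 864) in the young and 390 CPM (386 to 394) in the old library, 2.19-fold apart and -0.46 relative to the median gene. In UMIs per cell the same cells held 3.85 and 3.38. Non-classical monocyte-like cells stood at 451 (433 to 470) and 408 CPM (392 to 425), B cell-like cells at 577 (550 to 604) and 618 CPM (588 to 648), and T cell-like cells at 271 (249 to 295) and 280 CPM (255 to 306). Their relative ratios were 0.03, 0.19 and 0.17. The order of classes changed with age for this gene: neutrophil-like cells were highest in the young library, and B cell-like cells in the old.

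Ddit4, on chromosome 10 (59949669 to 59951834, minus strand), was scarce in neutrophil-like cells and ran upward there, from 4.63 CPM (4.03 to 5.29) to 8.5 CPM (7.87 to 9.16), 1.43 relative to the median gene. In T cell-like cells it ran the other way, from 41.9 CPM (33.3 to 52) to 20.4 CPM (14.2 to 28.4), -0.88 relative to the median gene on 82 and 35 UMIs. Non-classical monocyte-like cells held the highest level of any class in both libraries, 169 CPM (158 to 180) and 103 CPM (94.5 to 111), -0.54 and within 1.5-fold. B cell-like cells stood at 16.6 (12.4 to 21.7) and 18.9 CPM (14 to 24.9), with overlapping intervals. In T cell-like cells Ddit4 fell under the limit for a ratio when cells were thinned to 1000 UMIs, and without a cell filter its ratio was -0.43.

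Of the clock genes among the members, Nfil3 was the one that was higher in more than 1 class. This repressor of D-box genes, on chromosome 13 (52967209 to 52981073, minus strand), stood in neutrophil-like cells at 51.3 CPM (49.3 to 53.4) in the young and 68.9 CPM (67.1 to 70.7) in the old library, 1.34-fold apart and 1.09 log2 above the median gene. In non-classical monocyte-like cells it went from 27.4 CPM (23.1 to 32.3) to 72.4 CPM (65.6 to 79.7), 1.54 relative to the median gene. Measured UMIs per cell there, 0.299 and 0.808, lie above the free RNA estimates of 0.0706 and 0.215. In B cell-like cells the ratio was 1.32 on 20 and 43 UMIs, and the young level of 0.0474 UMIs per cell is at the free RNA estimate of 0.0467. T cell-like cells held 19.4 CPM (13.7 to 26.6) and 17.5 CPM (11.8 to 25), which overlap, at -0.02.

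Per1 and Per2, the repressors of the loop, lay within 1.5-fold of the median gene in every class where they were measured. Per1, on chromosome 11 (69095217 to 69109960, plus strand), stood in neutrophil-like cells at 45.7 CPM (43.8 to 47.7) and 25.8 CPM (24.7 to 26.9), -0.13 relative to the median gene. Its levels in non-classical monocyte-like cells, 37.1 (32 to 42.7) and 36.7 CPM (31.9 to 42.1), in B cell-like cells, 14 (10.2 to 18.8) and 12.5 CPM (8.59 to 17.5), and in T cell-like cells, 16.9 (11.6 to 23.7) and 17.5 CPM (11.8 to 25), overlap between the libraries. Per2, on chromosome 1 (91415982 to 91459324, minus strand), was highest in neutrophil-like cells in both libraries, at 51.6 CPM (49.5 to 53.7) and 35.3 CPM (34 to 36.6), 0.14 relative to the median gene and -0.53 as a plain log2 ratio. The other 3 classes held Per2 at 4.6 to 13.8 CPM, with overlapping intervals between the libraries, and in T cell-like cells its 9 and 9 UMIs fell under the limit for a ratio. Part of that level is near the free RNA estimate. T cell-like cells held 0.0474 and 0.0529 UMIs per cell where the estimates were 0.0427 and 0.0564. Old non-classical monocyte-like cells held 0.122 with an estimate of 0.11. No Per2 expression of their own is read for these cells. Young B cell-like cells held 0.0758, above their estimate of 0.047, and whether this is their own expression was not tested. Old B cell-like and young non-classical monocyte-like cells lay further above their estimates. With free RNA subtracted, Per2 in B cell-like cells counted as higher, as given in the closing section.

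Arntl, Nr1d2 and Dbp were at the edge of detection in neutrophil-like cells, with 107 and 154, 15 and 34, and 50 and 31 UMIs, and no ratio is read from them there. Arntl, on chromosome 7 (113207465 to 113314126, plus strand), was highest of the 4 classes in T cell-like cells, 81.7 CPM (69.5 to 95.4) and 55.4 CPM (44.8 to 67.7), followed by B cell-like cells at 48.7 (41.3 to 57.1) and 39.7 CPM (32.5 to 48) and non-classical monocyte-like cells at 23.1 (19.1 to 27.7) and 21.3 CPM (17.6 to 25.4). The relative ratios, -0.43, -0.19 and 0.06, lie within 1.5-fold. Nr1d2, on chromosome 14 (18204054 to 18239127, minus strand), had its highest level in non-classical monocyte-like cells, 24.5 (20.4 to 29.1) and 18.3 CPM (14.9 to 22.1), which does not differ beyond the intervals from T cell-like cells at 19.4 (13.7 to 26.6) and 18.1 CPM (12.3 to 25.7). Dbp, on chromosome 7 (45705088 to 45710203, plus strand), was measured in T cell-like cells alone of the 4 classes, at 10.2 (6.24 to 15.8) and 8.16 CPM (4.46 to 13.7). Sphk2 overlaps Dbp on the other strand with 722 and 1398 UMIs in neutrophil-like cells, and since the strand setting of the counting is not given in the sources used here, reads of the pair cannot be told apart.

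**Figure D2:**
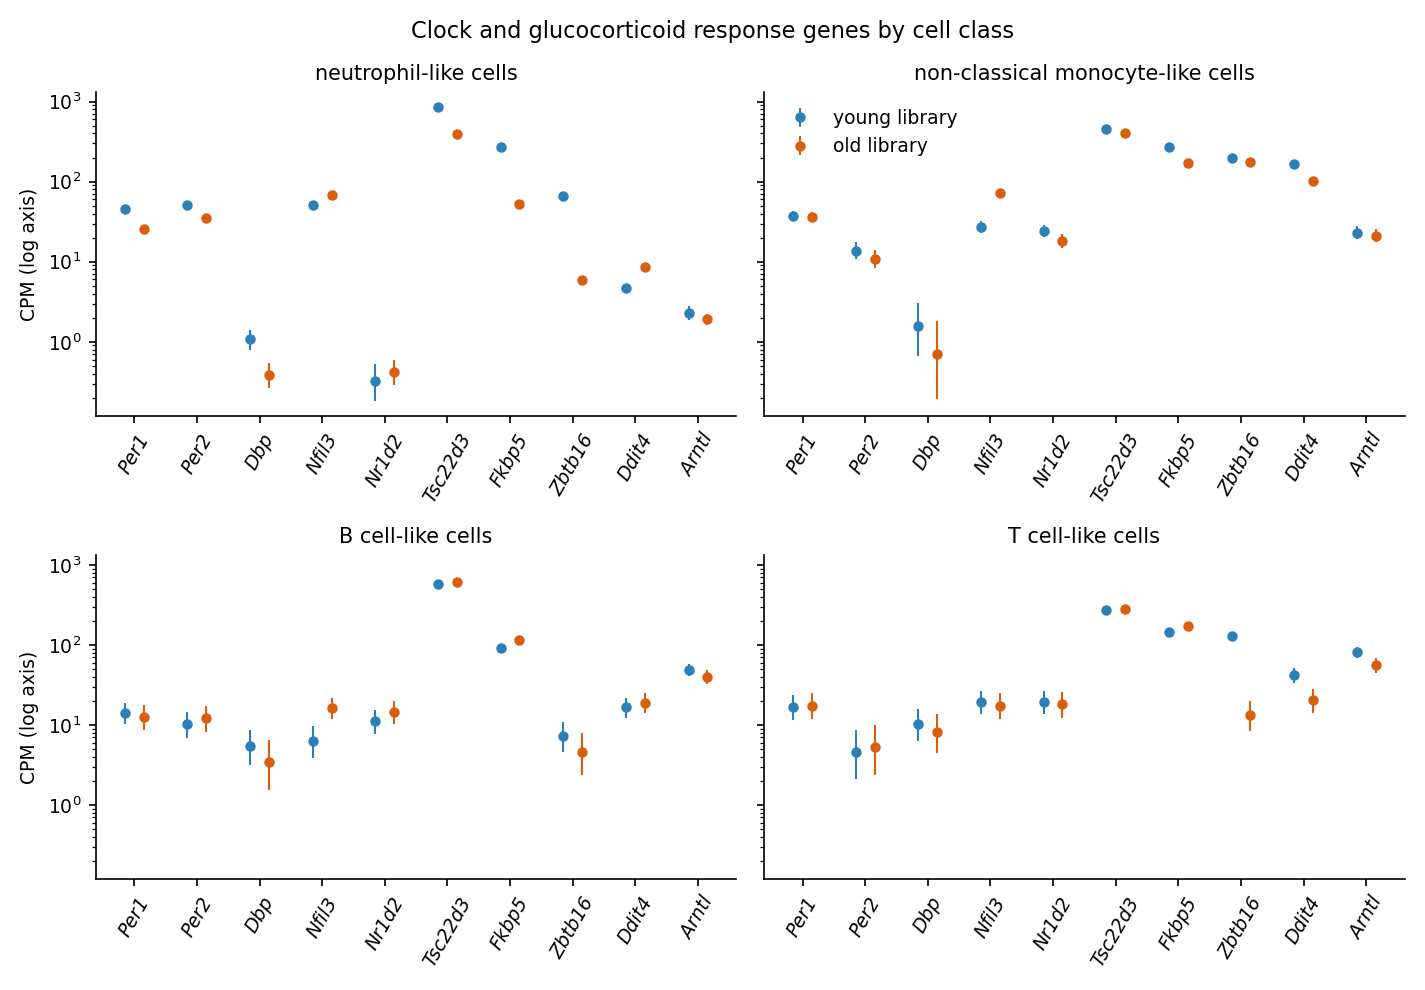
Level of each member in CPM (log axis) in 4 cell classes, blue for the young and orange for the old library, with exact Poisson 95% intervals. Blue and orange separate widely for Fkbp5 and Zbtb16 in neutrophil-like cells and for Zbtb16 in T cell-like cells, while Per1 and Arntl overlap in non-classical monocyte-like and B cell-like cells.

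**Figure D3:**
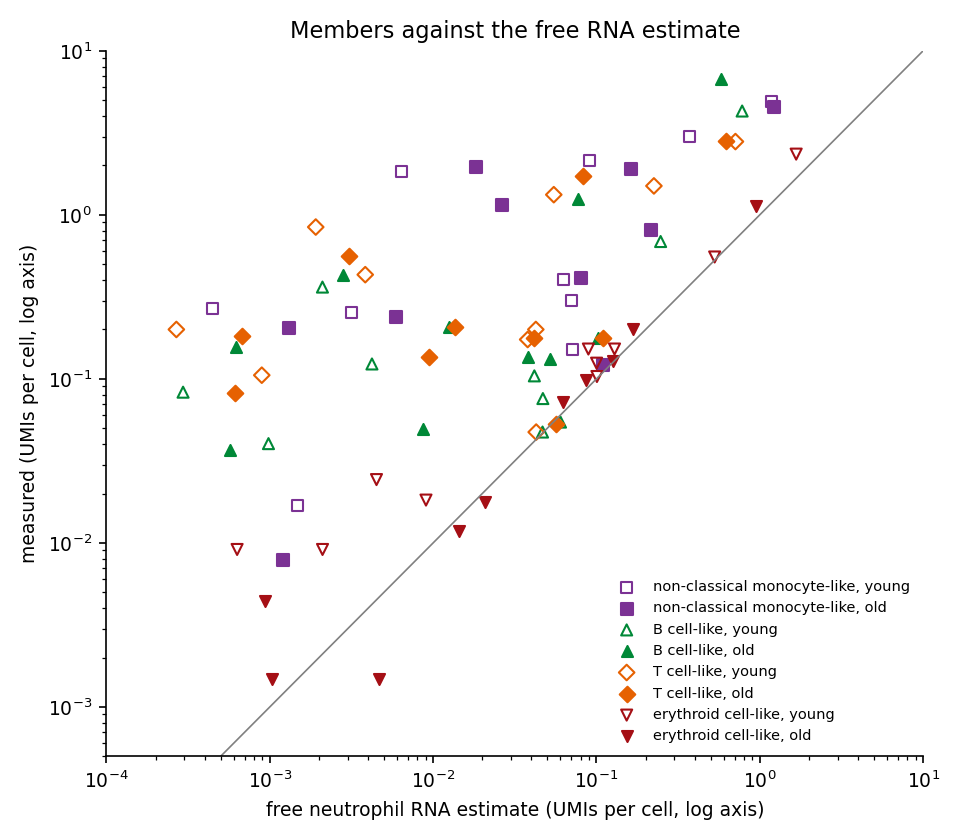
Measured UMIs per cell of each member against the free neutrophil RNA estimate (both log axes), open marks for the young and filled for the old library; the line marks equality. In erythroid cell-like cells, which a CD45 sort should remove, Fkbp5, Per2 and Zbtb16 lie near the line, with Fkbp5 at 0.553 measured and 0.529 estimated in the young library, whereas Arntl and Nr1d2 in T cell-like cells lie far above it.

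Most young and most old neutrophil-like cells lay in different clusters. Clusters 0 and 2 had 7042 and 2948 of the young cells but 702 and 488 of the old, and clusters 1, 3 and 4 had 4320, 1846 and 1680 of the old cells but 210, 72 and 38 of the young. Cluster 3 was led by the granule genes Ltf, Camp and Ngp, which neutrophils make while still maturing. None of the 10 members was among the 2000 variable genes that made the clusters. Within clusters 0, 1 and 2, which had at least 200 cells of each library, Fkbp5 was lower in each (290 against 129 CPM, 171 against 49.6 and 250 against 87.9), with relative ratios of -1.04, -1.47 and -1.33. Zbtb16 was also lower in each (72.2 against 33.8 CPM, 27 against 6.43 and 60.8 against 29), at -0.95, -1.62 and -0.88, less than the -2.61 over all neutrophil-like cells. Nfil3 was higher in each (49.7 against 82.4 CPM, 48.1 against 87.8 and 56.9 against 79.4), at 0.84, 1.15 and 0.64. Per1, within 1.5-fold over all cells, was higher in each cluster (48.2 against 74 CPM, 21.9 against 30.5 and 44.9 against 63.4), at 0.73, 0.75 and 0.65, although in cluster 1, with 30 young UMIs, the intervals of the levels overlap. Tsc22d3 lay within 1.5-fold in each, at 0.28, 0.24 and 0.27, and Ddit4 was higher in cluster 1 alone, at 1.20, where the young cells held 7 UMIs. Young and old cells of a cluster were not matched in granule transcripts. Summed Ltf, Camp and Ngp stood at 33.4 against 541 CPM in cluster 0, 2073 against 1503 in cluster 1 and 43.6 against 594 in cluster 2.

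The old cells of cluster 3 had the lowest old level of Tsc22d3 (192 CPM), Fkbp5 (46.6 CPM), Zbtb16 (1.26 CPM), Per1 (11.5 CPM), Per2 (26.8 CPM) and Nfil3 (33.6 CPM) among the neutrophil-like clusters; for Fkbp5 the intervals of clusters 1, 4 and 12, at 49.6, 49 and 59.9 CPM, overlap it, and for Per2 that of cluster 12, at 33.7 CPM. All 12 specific granule genes were higher in old neutrophil-like cells, with a median of 3.93 log2. In the 9764 young and 3073 old neutrophil-like cells that had no UMI of Ltf, Camp or Ngp after thinning, Fkbp5 stood at 277 and 60.6 CPM (-1.69), Zbtb16 at 68.4 and 9.62 CPM (-2.22), Nfil3 at 52.7 and 98.3 CPM (1.38) and Ddit4 at 4.6 and 10.1 CPM (1.47). Per1 in these cells, at 46.9 and 38.2 CPM (0.20), lay within 1.5-fold, unlike in clusters 0, 1 and 2. Per2, at 51.8 and 43.1 CPM (0.23), and Tsc22d3, at 879 and 549 CPM (-0.19), also lay within 1.5-fold.

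**Figure D4:**
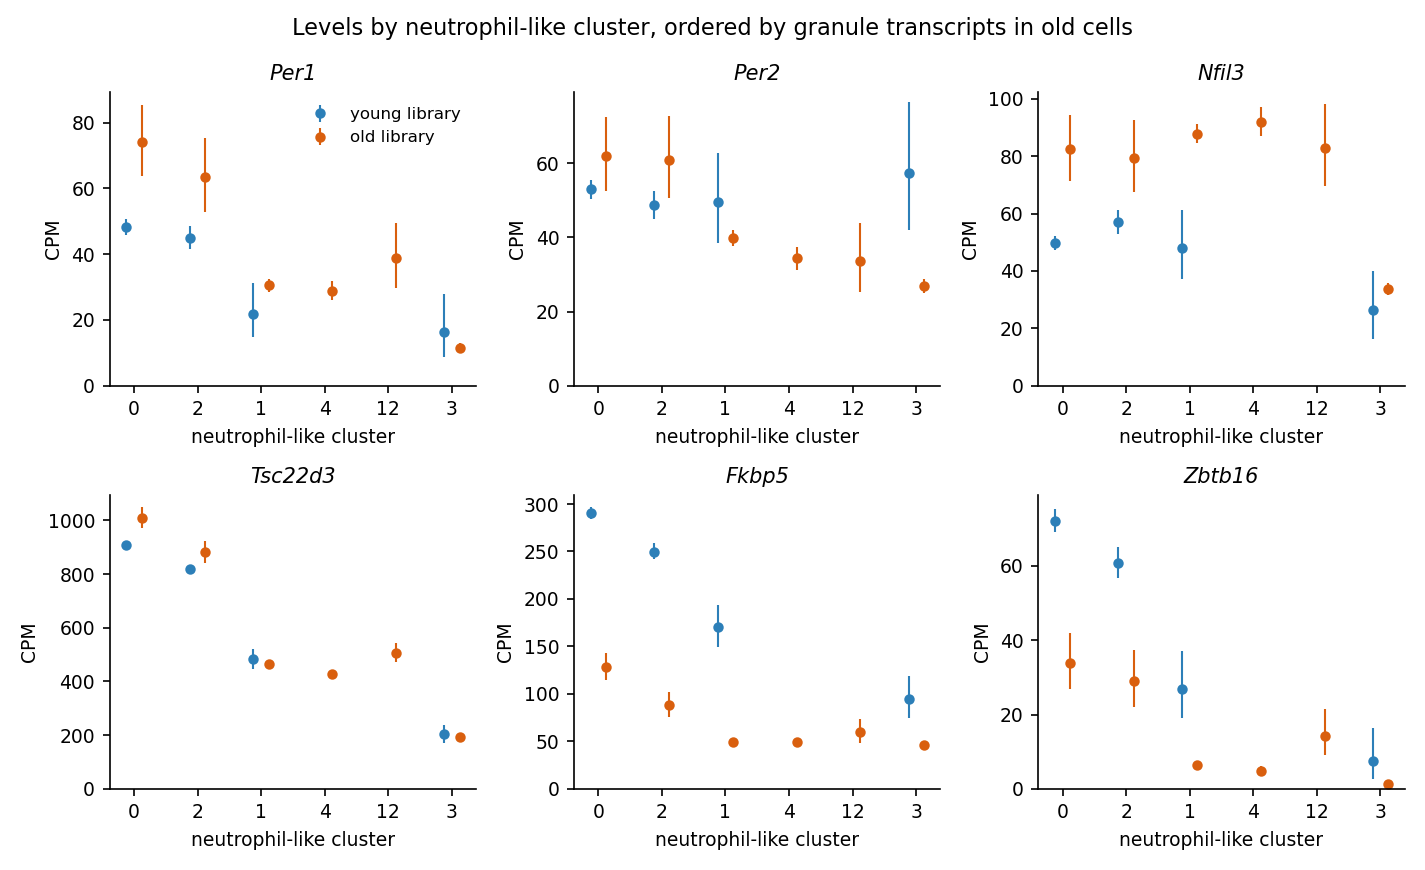
CPM of 6 members in each neutrophil-like cluster, blue for the young and orange for the old library with exact Poisson 95% intervals, clusters ordered from left to right by their summed Ltf, Camp and Ngp level in old cells; a library with under 50 cells in a cluster has no mark. Orange lies below blue for Fkbp5 and Zbtb16 and above it for Nfil3 and Per1 in clusters 0, 1 and 2, and the last cluster, 3, has low old values for all 6.

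In classical monocyte-like cells, 178 young and 1372 old, 4 members lay at least 1.5-fold from the median gene. Nfil3 was higher, 39.2 CPM (31.8 to 47.9) against 74.3 CPM (71 to 77.8), at 1.03, and Fkbp5 and Zbtb16 were lower, 241 (222 to 261) against 111 CPM (107 to 115) and 53.9 (45.1 to 64) against 24.1 CPM (22.2 to 26.1), at -0.98 and -1.01. Ddit4 was lower, 81.3 (70.4 to 93.4) against 16.4 CPM (14.9 to 18.1), at -2.11, opposite in side to neutrophil-like cells. Tsc22d3 is not among the 4, although its intervals lie apart, at 412 (387 to 438) and 316 CPM (309 to 323). Dbp also had separate intervals, at 5.31 (2.83 to 9.09) and 1.63 CPM (1.17 to 2.21), but fell under the floor. Of all 9387 measured genes in this class 7.92% were higher and 8.71% lower. The 10 dendritic cell markers summed to 5360 CPM in its young and 1336 CPM in its old cells and the 10 neutrophil markers to 12727 and 41423 CPM, and their part in these differences was not tested.

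The wider gene lists place the members among their pathways in neutrophil-like cells, where the median of all measured genes was 0.09 log2, with 24.5% of them higher and 12.2% lower. Of 13 clock repressors and kinases 8 were measured and all 8 lay within 1.5-fold of the median gene, with a list median of -0.17. Cry1, a partner of the PER proteins, stood at 38.4 and 18 CPM (-0.38) and Csnk1d, a kinase that marks PER for decay, at 57.5 and 42 CPM (0.23). Of 8 clock activators and loop genes 2 were measured, Nfil3 and Clock, and Clock, at 8.94 and 8.1 CPM (0.55), lay within 1.5-fold. Of 8 clock output genes 3 were measured and all 3 were higher, with a list median of 1.17: Nfil3, Coq10b (39 against 55.6 CPM, 1.17) and Tspo, a mitochondrial outer membrane protein (342 against 1322 CPM, 2.62).

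The glucocorticoid-induced list had members on both sides: of 26 genes 20 were measured, 4 higher, 4 lower and 12 within 1.5-fold, with a median of -0.14, beside 24.5% higher and 12.2% lower over all genes. Beside Fkbp5 and Zbtb16, Pik3ip1, an inhibitor of PI3 kinase, was lower (26.1 against 3.77 CPM, -1.83), and so was Cxcr4, the receptor that returns neutrophils to the marrow (459 against 153 CPM, -0.91). Beside Ddit4, Anxa1, which codes for the anti-inflammatory protein annexin, was higher (892 against 2380 CPM, 2.09), as was Lcn2 (1401 against 8886 CPM, 3.34), which is also a granule gene of the maturing neutrophil. Of 15 genes of the receptor and its partners 13 were measured, 2 higher and 0 lower. The receptor Nr3c1 itself stood at 338 and 165 CPM (-0.35), Hsp90ab1, a chaperone of the receptor, at 56.9 and 106 CPM (1.56), and Hsd11b1, the enzyme that regenerates active glucocorticoid, at 25 and 128 CPM (2.98). On the plain CPM ratio the glucocorticoid-induced list had 3 higher and 13 lower, the receptor list 2 and 8, and the clock repressors and kinases 0 and 6. Since 7.94% of all genes were higher and 49.7% lower on that ratio, nothing about the lists is read from these counts.

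Among lists of other stimuli, the immediate early genes, which are induced within minutes of a signal, had most of their called genes on the lower side. Of these transcripts 17 of 24 were measured, 1 higher and 8 lower, with a median of -0.53. The 24.5% and 12.2% over all genes are the shares to read beside this and the next 2 lists. Egr1 stood at 74.6 and 5.76 CPM (-2.81), Atf3 at 57.3 and 14.6 CPM (-1.23) and Ier3, the higher one, at 85.1 and 80.7 CPM (0.60). Of 14 hypoxia and stress genes 12 were measured, 5 higher and 3 lower, with a median of 0.15. The glucose transporter gene Slc2a1 was higher (66.5 against 86.3 CPM, 1.04), as was the asparagine synthetase gene Asns (1.86), while Ddit3 (76.7 against 25.8 CPM, -0.87) and Chac1 (-1.22) were lower. Of 10 genes linked to the daily ageing of neutrophils in blood 3 were higher, 2 lower and 5 within 1.5-fold, with a median of 0.23. Besides Cxcr4, the chemokine gene Cxcl2 went from 22.7 to 67 CPM (2.19) and Ly6g, the gene of the sorted marker, from 103 to 1018 CPM (3.97).

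**Figure D5:**
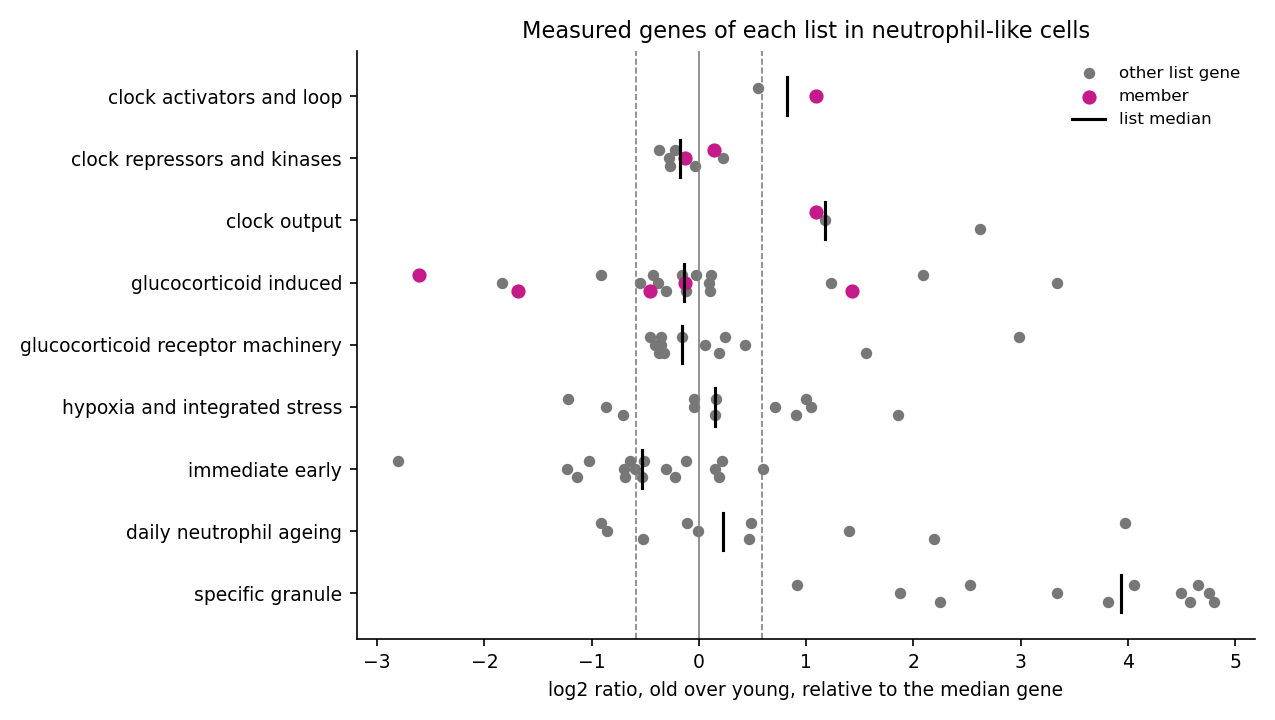
Each point is a measured gene of a list in neutrophil-like cells, placed by its old to young log2 ratio relative to the median gene; pink marks members, black bars list medians and dashed lines 1.5-fold. Specific granule genes lie to the right, with a median of 3.93, and the clock repressors and kinases lie between the dashed lines.

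The same lists were read in the other classes. Of the glucocorticoid-induced genes 22, 19 and 20 were measured in non-classical monocyte-like, B cell-like and T cell-like cells, with 4, 3 and 6 higher and 1, 1 and 4 lower, and medians of 0.15, -0.16 and 0.17. Over all measured genes of these classes 6.69%, 12.4% and 12% were higher and 4.83%, 8.67% and 9.06% lower, which also stands beside the counts that follow. Clock output genes were higher in 3 of 4, 2 of 5 and 4 of 6, with Tspo among them in each class. Immediate early genes were higher in 1 of 19, 6 of 21 and 4 of 18 and lower in 1, 4 and 0. Specific granule genes were higher in 11 of 12, 11 of 11 and 10 of 11 in these classes too, with medians of 3.64, 2.69 and 1.95, and the part of free neutrophil RNA in the differences of these lists was not tested.

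Over 14 levels, those of 7 classes in 2 libraries, each member measured in neutrophil-like cells was compared with 5771 genes by Pearson correlation of log2 levels, as a description of points that share libraries and free RNA. The genes most like Fkbp5 were N4bp2l1, Spen and Scarb2 (r of 0.97 for each), those like Tsc22d3 included Ppp3ca and Eif2ak3 (0.95), and those most like Per1 were St3gal4, A130014A01Rik and Ugp2 (0.96). Zbtb16 was nearest to Mbp (0.91), Skint3 and Itgax (0.89), and Ddit4 to Myo1g (0.96), B4galt5 and Itgav (0.95). Nfil3 was nearest to Vsir, Nhsl2 (0.94 for both) and Anxa2 (0.92), and Per2 to Arsg (0.93), Ggt5 and Ccdc180 (0.91). Among the members themselves the highest values were 0.91 for Arntl and Nr1d2, 0.87 for Nr1d2 and Ddit4, 0.84 for Per1 and Fkbp5 and 0.78 for Fkbp5 and Zbtb16, and the lowest was -0.57 for Per2 and Dbp.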

How the data were processed

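Single-cell RNA of 1 young and 1 old library was analysed, 2 samples in all, at the depths given above. The authors deposited raw UMI counts for each gene in each barcode, made with Cell Ranger 7.2.0 per the file headers and build mm10 per the submitters' processing notes; the annotation release, strand and intron settings and cell calling are not given in the sources used here. Barcodes under 200 genes or above 20% mitochondrial UMIs were removed (678 young, 817 old). Both libraries were clustered together without integration in scanpy 1.11.5 (leidenalg 0.10.2; other steps used pandas 2.3.3, scipy 1.17.1 and numpy 2.4.6 under Python 3.11.15) on counts scaled to 10000 per cell and logged, with 2000 variable genes, 30 components, 15 neighbours and Leiden resolution 0.6. Clusters were named from 17 lists of markers, each with 3 or more detected (20 CPM and 25% of the highest cluster) and leading genes not of another class; these limits were set after cluster tables were seen. Immature and interferon neutrophil lists counted as neutrophil-like. Doublets were not called; cells with 0.5% or more of UMIs from markers of another class were dropped in an alternative.

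Counts were summed by class and library. Each ratio is the log2 of (old CPM + 1) over (young CPM + 1), relative to the median gene at 50 CPM or more, with exact conditional (Clopper-Pearson) 95% intervals. Genes named from the lists are the 2 highest and 2 lowest ratios at 10 CPM or more in neutrophil-like cells, and for each member the 3 most correlated genes, of which 1 is not reported here; Nr3c1, Clock and the genes counted as the only higher or lower of a list were named outside that rule. Ddit3 is on 2 lines of the files, of which the first was used. The members, lists and markers were chosen with earlier results of these data known. Simulated counts were used to check the ratio code. Positions come from GENCODE for GRCm38 and promoters from RefSeq. Alternatives for scaling, weights, depth, floors, folds, cell filters, clusters, mixed cells and free RNA are given in the closing section.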

Additional observations from a re-analysis of the deposited data

Results flagged for a closer look

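Ddit4 ran in opposite directions in classes of the same libraries. Its old to young log2 ratio was 1.43 in neutrophil-like cells and -0.88 in T cell-like cells, a difference of 2.30. Against classical monocyte-like cells, at -2.11, the difference was 3.54. Over the alternatives the ratio ranged from 0.62 to 1.5 in neutrophil-like cells, the lowest being the mean within shared clusters, and from -1 to -0.43 in T cell-like cells, where the call was kept in 11 of 15 settings. Within clusters 0 and 2, which hold most young neutrophil-like cells, Ddit4 stood at 0.39 and 0.28, within 1.5-fold, with intervals that span 0. With 1 library per age neither difference was tested. Young and old neutrophil-like cells held 215 and 686 Ddit4 UMIs, T cell-like cells 82 and 35, and classical monocyte-like cells 199 and 414.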

How the results depend on the processing

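No paired analysis was possible because there was 1 library per age. Of 640 member values under alternatives, 539 stayed within the counting interval of the value reported, 101 moved out of it and 0 changed sign among those called. The alternatives at 2-fold and with other floors change calls and not ratios. Their values are among the 539 by construction and say nothing on stability. Of 130 values of called members 123 kept their call. The call of Ddit4 in T cell-like cells was lost after thinning, at 2-fold, without a cell filter and with scaled genes in clustering; that of Nfil3 in B cell-like cells after thinning and after subtracting free RNA, which left too few UMIs; and that of Nfil3 in neutrophil-like cells on the plain CPM ratio (0.42). In neutrophil-like cells Fkbp5 ranged from -2.36 to -1.28, Zbtb16 from -3.28 to -1.15 and Ddit4 from 0.62 to 1.5, the smaller values being means of ratios within shared clusters. The count of members past the fold in neutrophil-like cells was 4 or 5, and the count on 1 side in all 4 classes was 0 wherever it could be had. In non-classical monocyte-like cells the count of 1 became 3 on the plain ratio, 3 after thinning, 2 with a total without mitochondrial, ribosomal protein, S100a8 and S100a9 UMIs, 2 under the stricter cell filter and 2 with scaled genes. In B cell-like cells the count of 1 became 2 on the plain ratio, 2 with equal weight per cell, 2 with free RNA subtracted (Per2 and Fkbp5, at 0.83 and 0.92) and 0 after thinning, which left 3 members measured. In T cell-like cells the count of 2 became 1 at 2-fold, 1 without a cell filter and 1 with scaled genes. Beyond what thinning and higher floors remove by construction, the cause of these changes was not tested. At Leiden resolution 0.4 T and NK cells merged, so T cell-like cells gave no value there, and free RNA cannot be subtracted from neutrophil-like cells. The alternatives without granule cells, without shared barcodes and with scaled genes were chosen after seeing the data; the scaled clustering was made first and replaced after its clusters, not the members' values, were seen. Depth limits Dbp, Nr1d2 and Arntl in neutrophil-like cells and Per2 in T cell-like cells, which fell under the floor.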

Other observations

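Zbtb16 UMIs in T cell-like cells were gathered in few cells, by a limit of 5 UMIs chosen after its values were seen. In the young library 11 of 190 cells had 5 UMIs or more and held 217 of 252 UMIs; in the old library 2 of 170 cells did and held 11 of 23. The remaining cells held 0.196 UMIs each on average when young and 0.0714 when old.

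Erythroid cell-like cells, 329 young and 675 old, carried Fkbp5 at 0.553 and 0.129 UMIs per cell and Zbtb16 at 0.152 and 0.0119. The free neutrophil RNA estimates for the same cells were 0.529 and 0.127 for Fkbp5 and 0.129 and 0.0143 for Zbtb16.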
